A study of Caenorhabditis elegans with 2 samples.

Results

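The nuclear pore and nuclear transport genes described here are the protein-coding genes whose names start with npp-, imb-, ima-, xpo- or ran- in the ce11 annotation, 40 of the 19973 protein-coding genes. The npp- genes encode nucleoporins, the imb- and ima- genes importins, the xpo- genes exportins and the ran- genes proteins of the Ran GTPase cycle. The genes were chosen by name and not by any value measured here. None of the 40 lies on the X chromosome, which holds 13.7% of the protein-coding genes, and 13 lie on chromosome I.

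The data are peak lists from chromatin immunoprecipitation with sequencing (ChIP-seq) of EGL-18, a transcription factor of the GATA family that acts in the seam cells, stem-like cells of the epidermis, in *Caenorhabditis elegans*. The worms were young adults of strain RW12252, aged 63 h, grown from first-stage larvae starved after bleaching, and carried the allele st12252[egl-18::TY1::EGFP::3xFLAG], inserted by CRISPR into the egl-18 gene itself on chromosome IV. An antibody to green fluorescent protein precipitated the fusion protein from sonicated chromatin of whole worms. There was 1 group with 2 biological replicates, both of the tagged strain, and the possible controls that the labels name were not analysed here, so that no height below is set against an untagged or input library. In whole worms a peak does not tell which cells it comes from.

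The nuclear pore is a channel through the nuclear envelope, built of nucleoporins that form an outer ring, an inner ring, a membrane anchor, a central channel lined with flexible repeats, filaments on the cytoplasmic face and a basket on the nuclear face. Importins carry proteins with a nuclear localisation signal inwards and exportins carry cargo outwards, and the nucleotide state of the small GTPase Ran decides where cargo is bound or let go. These genes are needed in dividing cells and in the germ line, where the envelope is taken apart and built again, and are used in nearly every cell type.

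Peak height below is the value that the authors' peak caller gave each peak, on a scale that is not stated, and it ranks peaks within a list only. The series ranked list, made from both replicates, holds 117695 peaks with a median height of 22.9, and the series thresholded list holds the 699 of them that passed the authors' threshold, with a median height of 81.6. Replicate 1 has 64911 ranked and 199 thresholded peaks, and replicate 2 has 54253 and 232. A gene's promoter height is that of its highest peak whose summit lies within 1000 bp upstream or 200 bp downstream of a transcript start, and a gene with no such peak counts as 0. A replicate's height is likewise its highest peak anywhere in the window, which need not lie at the summit of the series peak. The ranked lists are dense, so that 82.5% of all protein-coding genes have a promoter peak in the series ranked list, and a ranked peak alone does not set a gene apart.

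In the series thresholded list, 3 of the 40 genes (7.5%, exact Clopper-Pearson 95% interval 1.57 to 20.4) had an EGL-18 promoter peak. The share of all protein-coding genes was 1.87%, which the interval includes. The 3 were npp-3, npp-8 and npp-18, which encode scaffold proteins of the pore rings, but most genes of the rings were not in that list. The strongest peak near any of the 40 genes lay outside the promoter windows, upstream of imb-3, and is described below. The gene npp-6 had a ranked promoter peak of similar height that is not in the series thresholded list. Neither replicate's own thresholded list held a promoter peak for any of the 40 genes. The exact 95% interval for 0 of 40 reaches 8.81%. The shares of all protein-coding genes were 0.546% in replicate 1 and 0.751% in replicate 2, so that a share equal to these backgrounds could not be seen in 40 genes. Intervals and limits cover the number of genes only.

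At a score of 540 or more, which stands for an irreproducible discovery rate (IDR) of 0.05 or less, 6 of the 40 genes (15%, 5.71 to 29.8) had a promoter peak in the series ranked list, against 5.03% of all genes. The 6 were npp-3, npp-8, npp-6, npp-18, imb-3 and npp-23. Any ranked promoter peak was found for 35 of the 40 genes (87.5%), close to the 82.5% of all genes. In replicate 1 it was 25 of the 40 (62.5%) against 60.1%, and in replicate 2 it was 19 of the 40 (47.5%, 31.5 to 63.9) against 53.7%. The 5 genes with no promoter peak in any of the 3 ranked lists were imb-1, npp-9, npp-10, npp-12 and npp-15.

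The median promoter height of the 40 genes was 32.1 in the series ranked list, and that of all protein-coding genes was 26.8. Expressed as the share of protein-coding genes with a lower height, the median gene of the 40 stood at 63.2%, with a 95% interval from order statistics of 35.04 to 77.7 that spans the middle of the distribution. In replicate 1 the medians were 14.2 and 14.1, and in replicate 2 they were 0 and 10.3. The median gene was thus near the background in replicate 1. The median of 0 in replicate 2 follows from the 21 of the 40 genes that had no listed peak there. In that replicate 19 of the 40 stood above the median of all protein-coding genes, and in replicate 1 it was 20, so neither count sets the genes apart.

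**Figure D1:**
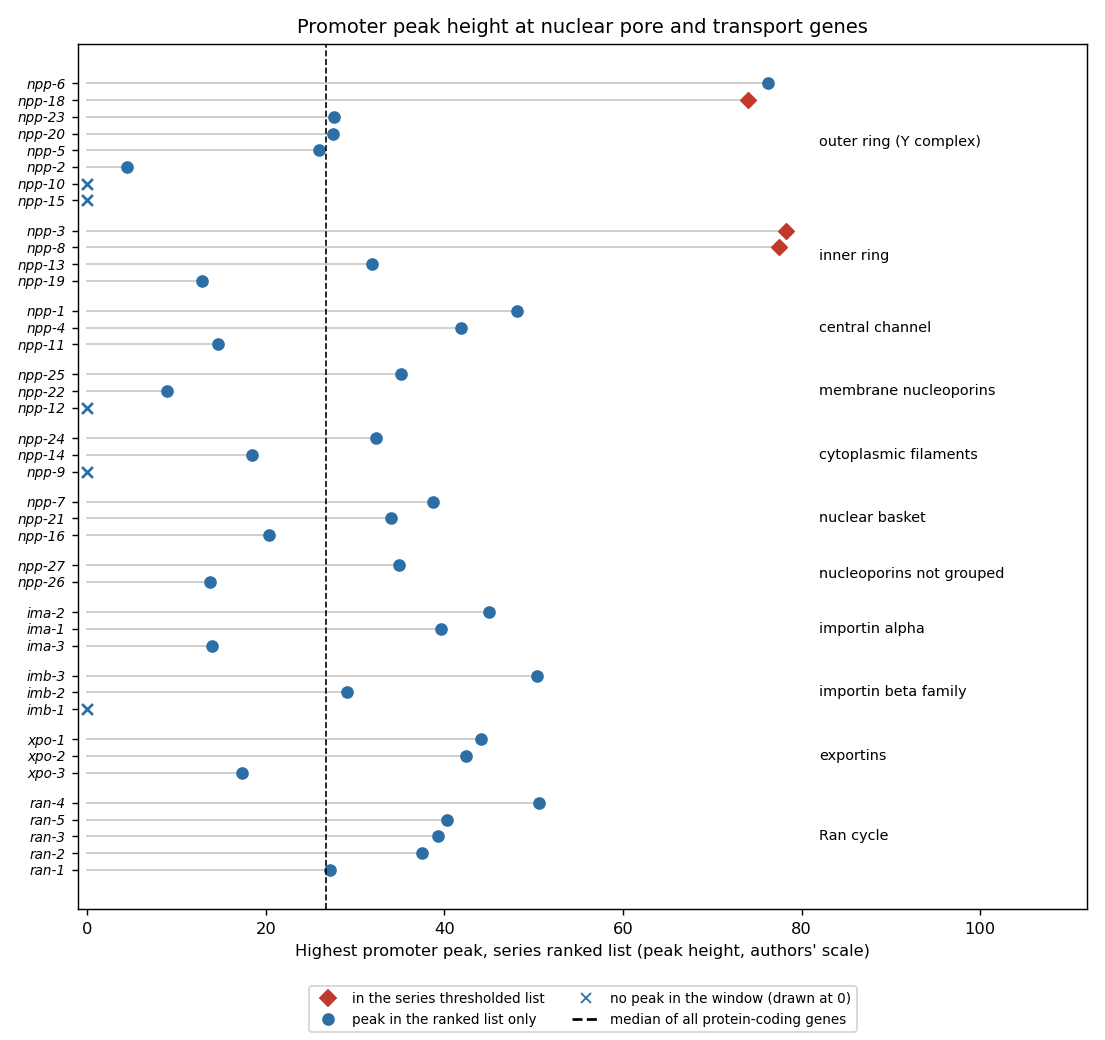
Highest promoter peak of each of the 40 genes in the series ranked list, grouped by role (horizontal axis, peak height on the authors' scale); red diamonds are genes in the series thresholded list, crosses are genes with no peak and the dashed line is the median of all protein-coding genes (26.8). 4 genes of the outer and inner rings lie between 74.0 and 78.2, and all others lie at 50.6 or lower.

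The inner ring holds the pore scaffold against the envelope, and 2 of its 4 genes were high. The gene npp-3, which encodes the worm Nup205, had the highest promoter peak of the 40, with a height of 78.2 in the series ranked list (rank 254 of all protein-coding genes), 44.4 in replicate 1 and 37.1 in replicate 2. Its summit lay 102 bp upstream of the npp-3 start, and 258 bp upstream of the start of top-2, which encodes DNA topoisomerase II and is read from the other side. The gene npp-8, for Nup155, had a height of 77.5 (rank 262), with 31.6 in replicate 1 and 40.8 in replicate 2, 155 bp upstream of its start. Both genes stood above at least 93.5% of all protein-coding genes in each replicate. The other inner ring genes were lower, npp-13 (Nup93) at 31.8 and npp-19 (the Nup35 or Nup53 protein) at 12.9.

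The outer ring is made of the Y complex, and its 8 genes spread from the top of the 40 to no peak at all. The gene npp-18, for Seh1, a small propeller protein of the Y complex, had a height of 74.0 (rank 317), with 48.7 in replicate 1 and 34.1 in replicate 2, and its summit lay 389 bp upstream of the start. Its score of 1000 in the series ranked list is the highest a peak can have. The gene npp-6, for Nup160, had a height of 76.3 (rank 285), with 38.9 in replicate 1 and 39.4 in replicate 2. The npp-6 summit lay 386 bp upstream of its own start. It also lay inside spd-5, on the opposite strand, 211 bp downstream of a start of spd-5 and 735 bp upstream of another. The gene spd-5 encodes a scaffold protein of the centrosome. When each peak was given to its nearest start alone, the height of npp-6 was 0. The npp-6 score was 708. Of the other Y complex genes, npp-23 (Nup43) had 27.7, npp-20 (Sec13) 27.5, npp-5 (Nup107) 26.01 and npp-2 (Nup85) 4.43, while npp-10 (Nup98 and Nup96) and npp-15 (Nup133) had none.

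The series list gives 1 value per gene and no error, so the order among the 4 highest genes rests on the replicates, which did not share it. In replicate 1 the order from the top was npp-18, npp-3, npp-6 and npp-8, and in replicate 2 it was npp-8, npp-6, npp-3 and npp-18. All 4 stood above 90% of protein-coding genes in both replicates, and no other gene of the 40 did. The 4 were 10% of the 40 genes (2.79 to 23.7), against 3.58% of all genes, which the interval includes. Because the series list was made from these replicates, this standing is not separate support for the 4. The gap between npp-18 and the next gene, ran-4, was 23.4 height units, whereas no other neighbours in the order differed by more than 5.62. The conservative series list held npp-3, npp-18 and npp-6 but not npp-8. In the replicates' own lists the 4 peaks had scores from 47 to 629, and 1 of these 8 scores, that of npp-18 in replicate 1, reached 540.

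The 151 bp around the summits of the 3 genes in the thresholded list are shown because they were rich in the dinucleotide CG. CG is in capitals. The window of npp-22 is shown beside them as an example from among the lowest peaks. The letters are from the RefSeq WBcel235 genome (the same assembly as ce11) and are written 5′ to 3′ on the strand of the gene. The npp-3 window is chrII:11874815-11874965 (minus strand), the npp-8 window chrIV:1595904-1596054 (minus strand), the npp-18 window chrIII:13296389-13296539 (plus strand) and the npp-22 window chrV:11733764-11733914 (minus strand). The first 3 hold no annotated exon base, and 108 bases of the npp-22 window are exonic.
npp-3: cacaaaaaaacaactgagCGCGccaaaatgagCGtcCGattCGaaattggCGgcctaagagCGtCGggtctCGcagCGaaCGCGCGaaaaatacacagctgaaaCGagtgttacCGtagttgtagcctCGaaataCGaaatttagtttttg
npp-8: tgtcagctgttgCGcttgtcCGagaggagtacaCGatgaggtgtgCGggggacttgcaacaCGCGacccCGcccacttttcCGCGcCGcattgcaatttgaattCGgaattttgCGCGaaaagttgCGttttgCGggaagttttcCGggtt
npp-18: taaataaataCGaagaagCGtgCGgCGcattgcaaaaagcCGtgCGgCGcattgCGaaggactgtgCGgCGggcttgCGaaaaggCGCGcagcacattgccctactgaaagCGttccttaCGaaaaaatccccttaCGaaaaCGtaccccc
npp-22: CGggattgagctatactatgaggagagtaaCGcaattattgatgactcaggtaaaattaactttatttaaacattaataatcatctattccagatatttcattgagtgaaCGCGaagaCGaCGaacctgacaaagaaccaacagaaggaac
The windows hold 17, 16, 17 and 6 CG steps in the order shown. The number varied among low peaks, so the npp-22 window does not stand for them. The lowest peak, that of npp-2 (height 4.43), held 10 CG steps. The peaks of npp-19 (12.9), npp-26 (13.8) and ima-3 (13.9) held 8, 2 and 5. The npp-18 window also repeats itself, with 8 positions at which a run of 12 bases occurs elsewhere in the same window, around the stretch written tgCGgCGcattg. A repeated run of that length was found in 2 of the 35 highest peaks of the pore and transport genes (5.71%) and in 6.18% of all highest promoter peaks.

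The remaining nucleoporin groups had ranked peaks of middling height and none in a thresholded list. Of the central channel genes, npp-1 (Nup54) had 48.2, npp-4 (Nup58) 41.9 and npp-11 (Nup62) 14.7, and npp-1 had a peak in replicate 2 (24.4) but not in replicate 1. Of the membrane nucleoporins, npp-25 (TMEM33) had 35.1, npp-22 (NDC1) 8.94 and npp-12 (gp210) none. The npp-25 promoter had a peak in replicate 1 (31.4) and none in replicate 2. On the cytoplasmic face, npp-24 (Nup88) had 32.3, npp-14 (Nup214) 18.5 and npp-9 (Nup358) none. In the nuclear basket, npp-7 (Nup153) had 38.7, npp-21 (TPR) 34.0 and npp-16 (Nup50) 20.4. Of these, npp-7 was alike in the replicates, at 19.8 and 18.5, and npp-21 was found in replicate 1 alone (21.2) and npp-16 in replicate 2 alone (22.8, with 11.7 at the summit of the series peak). The genes npp-27 and npp-26, which were not placed in a group, had 34.9 and 13.8.

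No transport receptor had a promoter peak in a thresholded list, and their heights ran from 50.4 to no peak. Among the importins of the beta family, imb-3 (importin 5) had a height of 50.4 and a score of 574, imb-2 (transportin) had 29.1 and imb-1 (importin beta 1, the partner of importin alpha) had no peak in any of the 3 ranked lists. The imb-3 promoter peak had a height of 48.2 in replicate 2, above 99.2% of all genes, and no promoter peak was listed for it in replicate 1. Among the importins alpha, which bind the localisation signal itself, ima-2 had 45.0, ima-1 39.6 and ima-3 13.9. The ima-2 window had a peak in replicate 1 alone (37.6), and that of ima-3 had one in neither. The ima-1 window had peaks of 22.7 in replicate 1 and 18.1 in replicate 2, but within 150 bp of the ima-1 summit the peaks had 16.2 and 21.5, so that which replicate was higher depends on the peak taken.

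Among the exportins, xpo-1, the CRM1 exportin for cargo with a leucine-rich export signal, had 44.1, with 20.7 and 18.7 as the highest in its window in replicates 1 and 2, and 29.8 and 12.4 within 150 bp of the series summit. The gene xpo-2, for the CAS exportin that returns importin alpha to the cytoplasm, had 42.4, with 33.1 and 21.3 in its window. The replicate 2 value belongs to another peak, and at the series summit of xpo-2 that replicate had 9.01. The gene xpo-3, for the exportin of tRNA, had 17.3 and no peak in either replicate. The series summits of xpo-2 and xpo-3 lay inside these genes, upstream of an internal start. By the highest peak in the window, xpo-1 and xpo-2 stood above 70.9% to 94.8% of all genes in the replicates.

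The 5 genes of the Ran cycle were the only role group in which every gene had a series height above the median of all protein-coding genes. The gene ran-4 (NTF2, which brings Ran back into the nucleus) had 50.6, ran-5 (a Ran-binding protein) 40.3, ran-3 (RCC1, the exchange factor on chromatin) 39.3, ran-2 (the GTPase-activating protein) 37.5 and ran-1 (Ran itself) 27.2. The ran-1 height was only just above that median of 26.8, and the ran-3 and ran-5 peaks lay nearer to a start of another gene. Replicate 1 listed a peak for all 5, from 10.5 to 31.6. The lowest, that of ran-2, was below the median of all protein-coding genes in that replicate (14.1). Replicate 2 listed one for ran-3 (24.4) and ran-5 (18.5) and none for the other 3, ran-4 included. The ran-3 window had 14.5 in replicate 1. What each replicate gave to the series heights of the group was not tested.

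The strongest peak near any of the 40 genes lay outside the promoter windows, at chrI:316146-316421, between the end of xpo-2 and the start of imb-3, which are neighbours on the minus strand with 3559 bp between them. Its summit lay 1295 bp upstream of the imb-3 start, and imb-3 has the nearest start of any protein-coding gene. Its height was 110.2 with a score of 1000, and the replicates had 63.0 and 53.8 with scores of 895 and 887. It was in the series thresholded list, the conservative list and the thresholded lists of both replicates, which held for no promoter peak of the 40 genes. It was not counted for imb-3 above because the window ends 1000 bp upstream, and with a window of 2000 bp it is the highest peak of all 40 genes.

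Other peaks with a score of 540 or more lay near 4 genes but outside the windows. The xpo-3 gene had one 1121 bp upstream (height 63.3, score 767), which lay nearer to a start of C49H3.3 (800 bp). Inside genes, ima-3 had one 523 bp downstream of its start (60.3, score 564), npp-23 one 382 bp downstream (57.4, score 664) and npp-21 one 4192 bp downstream (61.9, score 611). The peak inside npp-21 lay nearer to a start of osm-8 (1555 bp). The score of 664 that put npp-23 among the 6 genes above is that of a lower peak inside its window, 183 bp downstream of the start, with a height of 8.18.

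**Figure D2:**
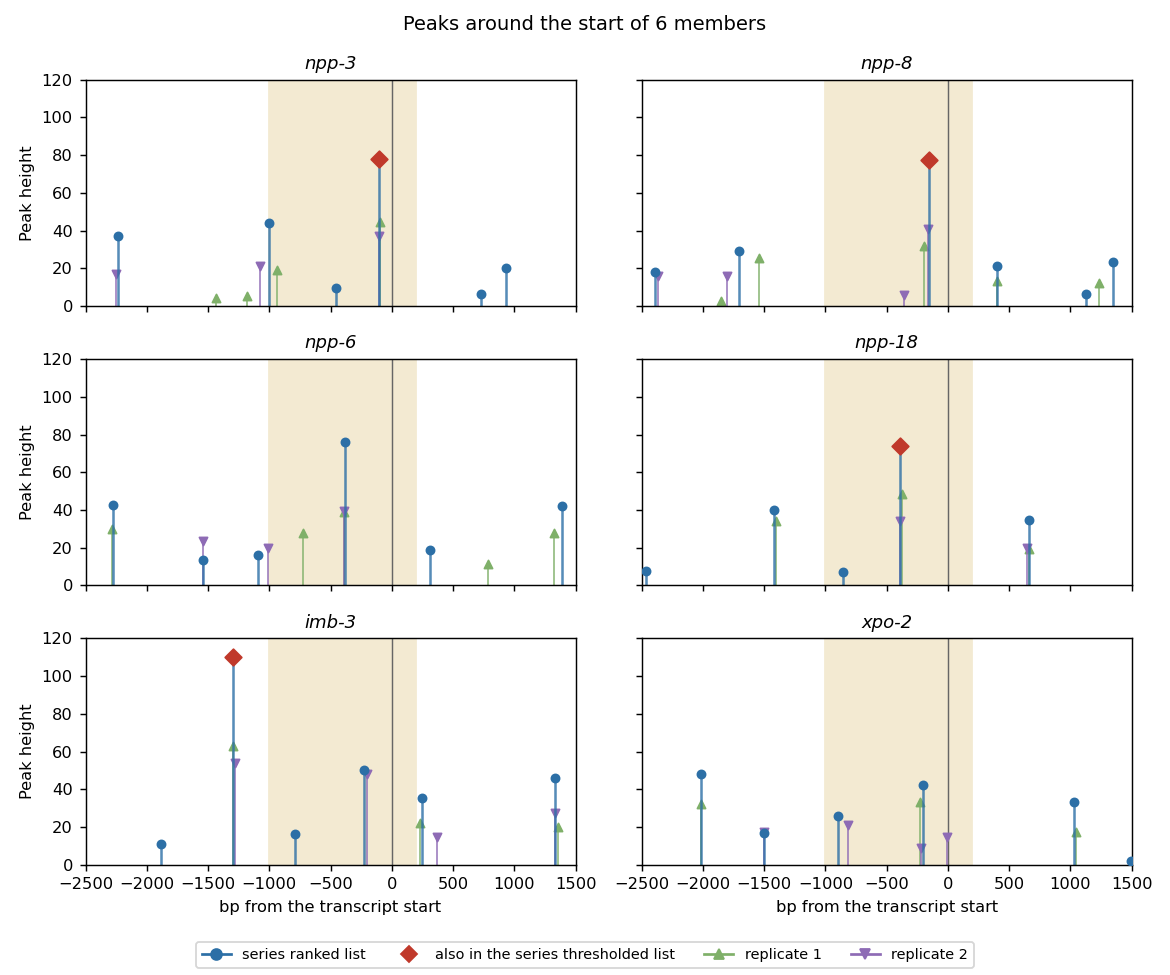
Peaks around the start of 6 genes by distance from the transcript start in bp (horizontal axis, negative is upstream) and peak height (vertical axis), with the promoter window shaded; stems are peaks of the series ranked list and of each replicate, and red diamonds are peaks also in the series thresholded list. The 110.2 peak of imb-3 stands outside the shaded window, and the peaks of npp-3, npp-8, npp-6 and npp-18 stand inside it with a peak of each replicate at the same place.

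Promoter peaks were shared between the replicates for a minority of the genes. Of the 40 genes, 13 (32.5%) had a promoter peak in both ranked lists, 12 had one in replicate 1 alone, 6 had one in replicate 2 alone and 9 had none, against 39.3% of all genes with both and 25.5% with neither. At the summit of the series peak itself, within 150 bp, both replicates had a peak for 11 of the 35 genes, replicate 1 alone for 10, replicate 2 alone for 7 and neither for 7. The 11 were the 4 highest genes with xpo-1, xpo-2, ran-5, ima-1, ran-3, npp-7 and npp-27. Over the 13 genes with a peak in both, Spearman's rho of the heights was 0.69, and over the 7852 such protein-coding genes it was 0.32, given as descriptions over genes that share libraries.

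**Figure D3:**
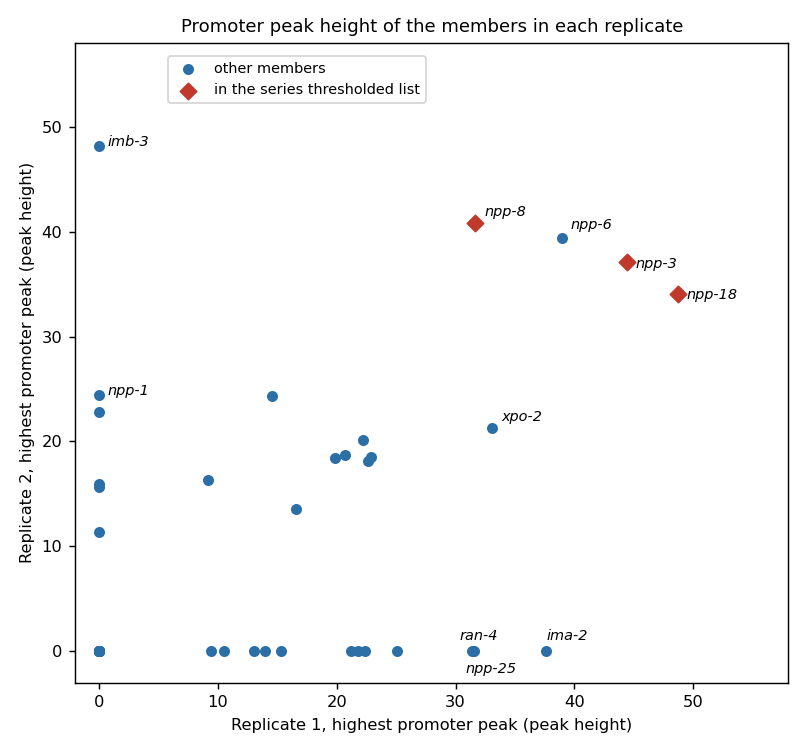
Promoter height of each of the 40 genes in replicate 1 (horizontal axis) and replicate 2 (vertical axis), with a gene without a peak at 0; red diamonds are genes in the series thresholded list. Apart from npp-3, npp-6, npp-8 and npp-18 no gene lies above 30 in both, and imb-3, ran-4, ima-2 and npp-25 are high in 1 replicate and at 0 in the other.

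Many of these promoters face another gene, which limits what a peak can be assigned to. The nearest upstream neighbour was on the opposite strand for 29 of the 40 genes (72.5%), against 46.3% of all protein-coding genes, and lay within 1000 bp on that strand for 20 (50%), against 21.2%. Of the 35 highest peaks, 17 (48.6%) also lay in the window of another gene, against 20.8% over all genes, and 10 (28.6%) lay nearer to a start of another gene, against 17.3%. Beside npp-3 with top-2 and npp-6 with spd-5, npp-7 shared its peak with unc-40 (the netrin receptor gene), 239 bp from its start, and npp-2 with mei-1 (a katanin subunit gene). The ran-3 peak lay 44 bp from the start of C26D10.3 and the ran-5 peak 5 bp from that of R12C12.6, both nearer than to ran-3 or ran-5. The npp-8 and npp-18 peaks lay in no other gene's window.

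Summits lay upstream of the start for 31 of the 35 genes (88.6%), against 80.4% of all genes with a promoter peak, and within 500 bp upstream for 19 (54.3%), against 42.1%. The median distance of those upstream was 367 bp, close to the 360 bp of all genes. The summits of xpo-2, xpo-3 and npp-27 were upstream only of an internal start and lay inside the gene itself. Nearly all summits (99.97%) were given at the centre of a peak of fixed width, so that small differences in position cannot be read. No tRNA, snoRNA or snRNA gene lay within 150 bp of any of the 35 summits.

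In base composition the peaks of these genes lay near other promoter peaks, and the promoter peaks of the thresholded list were richer in G and C. Within 75 bp of the summit the median GC content was 41.1% (23.2 to 55.0) over the 35 peaks and 39.1% over 15057 highest promoter peaks of all genes, and the median number of CG steps was 7 (2 to 17) and 5. Within 50 bp of the summit the median number of CG steps was 4 in both, so that the difference depends on the window. The 305 promoter peaks of the series thresholded list had medians of 48.3% and 10. The npp-6 window held 9 CG steps, fewer than those of npp-3, npp-8 and npp-18, and xpo-2 and npp-16, with 14 each, had heights of 42.4 and 20.4. Spearman's rho between height and CG steps was 0.40 over the 35 peaks and 0.25 over all, and between height and GC content 0.38 and 0.37. These are descriptions over peaks of the same libraries, and the part of base composition in the heights was not tested.

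**Figure D4:**
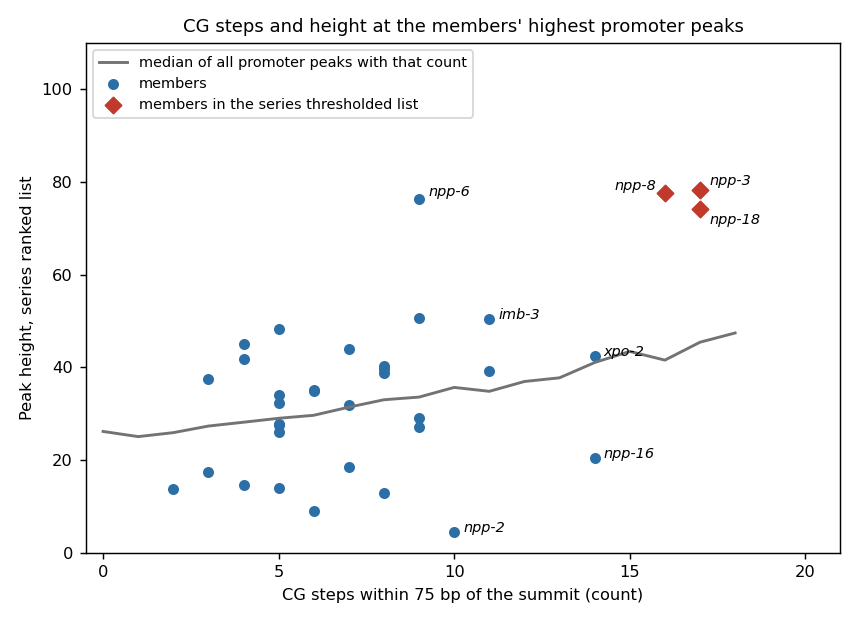
Number of CG steps within 75 bp of the summit (horizontal axis) and peak height in the series ranked list (vertical axis) for the 35 genes with a promoter peak; the line is the median height of all highest promoter peaks with that count and red diamonds are genes in the series thresholded list. The 3 diamonds lie at 16 or 17 CG steps, well above the line, and npp-6 lies as high at 9.

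GATA sites, the sequences that factors of the EGL-18 family bind, were found at few of these peaks. The motif, the letters GATA with A or T before them and A or G after them, occurred on either strand within 75 bp of the summit in 3 of the 35 peaks (8.57%), those of npp-1, npp-21 and npp-20, against 27.04% of all highest promoter peaks and 13.8% of the promoter peaks in the series thresholded list. None of the 4 highest genes had one in this window. Within 50 bp of the summit the same 3 peaks held one (8.57%), against 18.8% of all highest promoter peaks. The size of the difference thus depends on the window, and no interval was computed for it. The 3 windows are shown because they are all that held a site, with the sites in capitals, from the RefSeq WBcel235 genome and on the strand of the gene, 5′ to 3′. They are chrIV:9857781-9857931 for npp-1 (plus strand, all exonic, in the gene upstream), chrII:7599533-7599683 for npp-21 (plus strand) and chrIV:1496666-1496816 for npp-20 (minus strand).
npp-1: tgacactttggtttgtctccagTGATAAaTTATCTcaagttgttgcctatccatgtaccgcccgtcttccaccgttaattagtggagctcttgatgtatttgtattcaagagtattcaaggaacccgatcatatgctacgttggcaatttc
npp-21: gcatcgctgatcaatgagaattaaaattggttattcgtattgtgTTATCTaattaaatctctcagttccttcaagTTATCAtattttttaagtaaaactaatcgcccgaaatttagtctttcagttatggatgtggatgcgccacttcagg
npp-20: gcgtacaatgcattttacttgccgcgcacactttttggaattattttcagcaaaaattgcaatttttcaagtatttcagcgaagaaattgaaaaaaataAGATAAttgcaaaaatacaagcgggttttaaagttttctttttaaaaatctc
A site printed as TTATC and then T or A lies on the other strand. The npp-1 and npp-21 windows hold 2 sites each and the npp-20 window 1. The heights of the 3 genes were 48.2, 34.0 and 27.5.

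A pair of other sequences, CGCGCA and ACGCAG, was searched because earlier results of these data had put them forward, so that their presence at peaks is no independent result. On either strand within 75 bp of the summit, CGCGCA was found in 6 of the 35 peaks (17.1%), against 3.95% of all highest promoter peaks and 18.03% of the promoter peaks in the series thresholded list. The 6 were npp-8, npp-18, ran-3, npp-27, npp-20 and npp-19, with heights from 12.9 to 77.5. ACGCAG was found in 2 of the 35 peaks (5.71%), those of imb-3 and ran-3, against 5.29%. The npp-3 window held neither.

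A list of 28 other genes of the nuclear envelope, RNA export and the SUMO pathway, which modifies pore and transport proteins, was counted in the same way. None of the 28 had a promoter peak in the series thresholded list or in that of a replicate. The exact interval for 0 of 28 reaches 12.3%, which includes the 1.87% of all protein-coding genes in the series thresholded list. At a score of 540 or more, 5 of the 28 (17.9%, 6.06 to 36.9) had one, against the 5.03%. These were smo-1 (SUMO itself), gei-17 (a SUMO ligase), emr-1 (emerin), ulp-2 (a SUMO protease) and unc-83 (an outer envelope protein that links nuclei to motors). The highest were smo-1 at 71.7 (rank 355), gei-17 at 63.8 and emr-1 at 61.0. None of the 28 was above 90% of all genes in both replicates, against 3.58% of all genes, which the exact interval (up to 12.3%) includes. The gene nxt-1 stood at 89.9% in replicate 1 and 90.7% in replicate 2. List by list, 8 of the 28 stood above 90% in the series list, 2 in replicate 1 and 9 in replicate 2. For the 40 genes these counts were 6, 8 and 5. A replicate 2 promoter peak was listed for 24 of the 28 (85.7%), against 19 of the 40 (47.5%). The genes nxf-1, for the main mRNA exporter, and aly-1, for an export adaptor, had no peak. The median height was 36.3, beside 32.1 for the 40 genes.

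The choice by name left out a pair of genes that belong to the same machinery under other names. C35A5.8, called xpo-7 in RefSeq, had a promoter height of 30.8, and rae-1, formerly npp-17, had 17.2. Neither was in a thresholded list, and both were looked up after the values of the 40 genes had been seen.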

How the data were processed

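The samples were 2 biological replicates of young adult worms with tagged EGL-18, in 1 group. The 8 deposited peak lists are on ce11, and per the descriptions deposited with them the series lists derive from both replicates and each replicate's lists from that replicate alone. Which aligner and peak caller were used is not stated, and settings were not given in the sources used here. Peak height is the deposited signal, and it was used as a rank. The deposited score follows from the global IDR, as -125 times its base-2 logarithm with a ceiling of 1000, which held within 1 for 99.99% of ranked peaks, so that 830 stands for an IDR of 0.01 and 540 for 0.05. The −log10 column deposited by the authors holds that IDR and was used for this check. In the ranked lists, 4 columns of input heights were not used. Peak lists hold no read counts, so depth is unknown.

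Transcript starts came from Ensembl release 115 and sequence from WBcel235, on which no peak ran beyond a chromosome end. The join of summits to windows was tested on simulated data. With 1 group and no control list, no test between groups was possible, and all counts stand beside those of all protein-coding genes. The genes, lists, motifs and alternatives were chosen with earlier results of these data known. Named genes are those with a thresholded peak or a score of 540, the 10 highest, the 5 lowest and those without a peak, each role group, and genes that share a named peak. The other genes named were chosen after their values were seen. Tables were joined with pandas 2.3.3 and numpy 2.4.6 under Python 3.11.15, intervals came from scipy 1.17.1, and matplotlib 3.10.9 drew the plots.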

Additional observations from a re-analysis of the deposited data

Results flagged for a closer look

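The peak at chrI:316146-316421 had a height of 110.2 and lies outside the promoter windows on which the counts rest. It passed the thresholds of both replicates, with heights of 63.0 in replicate 1 and 53.8 in replicate 2. No control list was analysed here, so a level in control samples is not known, and whether the peak acts on imb-3, xpo-2 or another gene was not tested.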

How the results depend on the processing

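The count of 3 genes in the series thresholded list was 3 with a window of 500 bp upstream to 100 bp downstream, the nearest or the most upstream start, any overlap, a score of 830 or the conservative list (npp-6 in place of npp-8), and 4 with 2000 bp upstream, which adds imb-3. It was 6 at a score of 540 and 0 to 0 when 1 replicate was left out, since each replicate's own list then takes the place of the series list. The share of all protein-coding genes, 1.87% in the main setting, moved as well. It was 1.27% with the 500 bp window, 1.47% with the nearest start, 2.63% with 2000 bp and 5.03% at a score of 540. Without replicate 2 it was 0.546% and without replicate 1 it was 0.751%. With the other choices it lay from 1.6% to 2.05%. The median share of genes lower, 63.2%, lay from 49.0% (nearest start only) to 68.6% (2000 bp) for the other choices on both replicates, and from 0 (without replicate 1) to 50.4% (without replicate 2). For the other envelope and export genes the count of 0 became 5 at a score of 540. Of single heights, those of ran-4 and npp-1 were 0 and that of xpo-1 was 35.7 with the 500 bp window, and that of xpo-2 was 26.9 from its most upstream start. The cause of these changes beyond the windows themselves was not tested. Adding C35A5.8 and rae-1, chosen after seeing the data, left the count at 3 and gave a median of 61.5%. In all, 22 of 27 alternatives for the main results left a count within 1.5 times its value or the median within its 95% interval, and 34 of 40 left the height of one of the 10 highest genes as it was. No paired analysis was possible because there was 1 group. The heights are given without an estimate of their counting error, and with 2 replicates and unknown depth a missing peak cannot be told from one below detection.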
